A study of Mus musculus with 4 samples.

Results

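The genes described here encode TRPC channels, the canonical transient receptor potential family of calcium-permeable cation channels. They were chosen by name: Trpc1, Trpc4, Trpc5, Trpc6 and Trpc7, which are 5 of the 19938 genes that the array table measured. Each was read by 1 probe set that carried 1 gene symbol. Trpc6 was also part of the choice because it stood above control in the rescue cultures, so its rescue values are given as a description and were not tested.

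The cultures were cortical neurons of newborn pups (postnatal day 0) from a mixed SV129 and C57BL/6 background, and the labels give the pups as Syt1-deficient or wild type without assigning a genotype to an array. Lentivirus was added at 5 days in vitro and RNA was extracted at 14 to 15 days in vitro. The knockdown group (2 samples) carried shRNAs against the calmodulin genes, and the rescue group (2 samples) carried the same shRNAs plus an shRNA-resistant wild-type calmodulin. Each value is the ratio of such a sample, on an Affymetrix mouse Gene ST array, to the control-virus array of the same repeat, given below as log2, so that 0 is equality with control. Every group, control included, was a lentivirus-infected culture grown in serum and the mitotic inhibitor Ara-C, and what other cells remained is not stated. Because only ratios were used, the absolute level of a TRPC gene or of a neuronal marker is unknown, and probe sets near background could not be recognized. The labelled cell type could not be checked by its markers' levels. The number of arrays, 2 per group, limits the precision, and the labels do not say whether repeats were separate cultures, so p-values may measure technical spread.

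TRPC subunits assemble in groups of 4 into channels that open downstream of Gq-coupled receptors and phospholipase C. TRPC6 and TRPC7 are opened by diacylglycerol, TRPC4 and TRPC5 form a second closely related pair, and TRPC1 works mainly as a partner in mixed channels. Their C-terminal tails bind calmodulin and the inositol trisphosphate receptor at overlapping sites, and in neurons the family has been linked to growth cones, dendrite growth and slow depolarizations after metabotropic glutamate or muscarinic receptor activation. TRPC6 transcription is known in heart and kidney to respond to calcineurin and NFAT.

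RefSeq promoter sequences (build GRCm38.p6, 250 bases before to 50 after an annotated start) were found for all 5 genes. They were searched for the core of the cyclic AMP response element, TGACG, which is bound by CREB, a factor that calmodulin-dependent kinases phosphorylate. The search covered both strands, on which the motif reads TGACG or CGTCA. Trpc6 held 1 match and Trpc1 held 2, while the windows of Trpc4, Trpc5 and Trpc7 held none. The matches are shown because Trpc6 is the member with the largest departure from control, and they set it beside the member that shares the letters. Each is written 5′ to 3′ on the gene's strand with 10 bases on either side, and capitals mark the motif.

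Trpc6, chr9:8544029-8544053 (+), first motif base 103 bases before the start: gtggggatcgTGACGgaggacgtgg
Trpc1, chr9:95750416-95750440 (-), first motif base 82 bases before the start: cagagaggcgCGTCAgccctggagc
Trpc1, chr9:95750321-95750345 (-), first motif base 13 bases after the start: gggctgaggaTGACGtgaggagaaa

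Of 32851 promoter windows of this length, 20.8% held TGACG on either strand, so the match is common. The full palindrome TGACGTCA, in 1.79% of windows and containing TGACG, was in none of the 5. The NFAT core GGAAA, read as TTTCC on the other strand, was in 61.3% of windows. It was present in Trpc4, Trpc5 and Trpc7 and in neither Trpc6 nor Trpc1. These are matches of letters in the reference and no binding was measured.

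**Figure D1:**
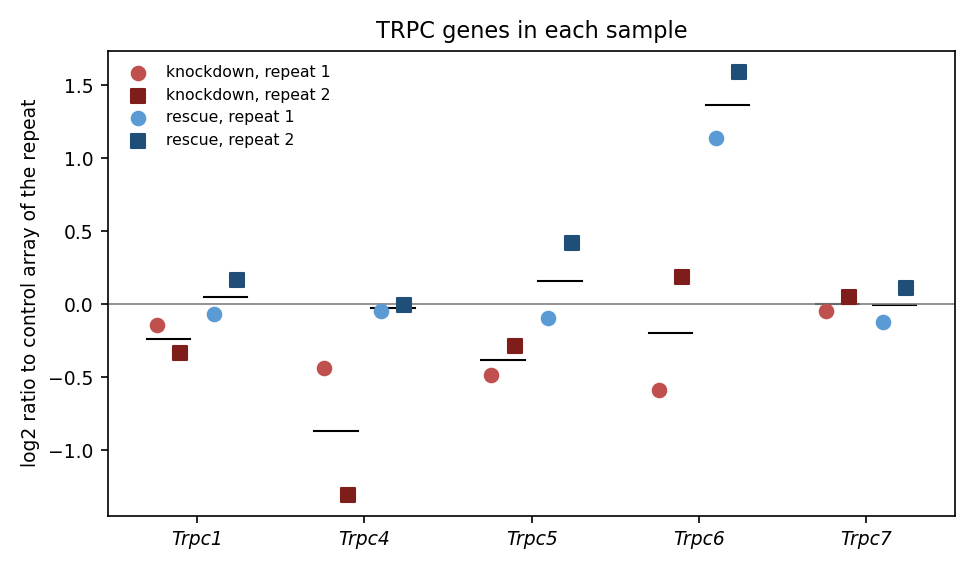
Log2 ratio to the control array of the same repeat (vertical axis) for each TRPC gene (horizontal axis) in the 4 samples; circles are repeat 1, squares repeat 2, red knockdown, blue rescue, and short black lines are group means of 2 samples. Trpc6 is at 1.14 and 1.59 in the rescue, above every other TRPC value, and Trpc4 has the lowest point, -1.30 in knockdown repeat 2.

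Of the diacylglycerol-gated pair, Trpc6 stood apart in the rescue. Its ratio to control was 2.20 in rescue repeat 1 and 3.01 in rescue repeat 2, which is 1.14 and 1.59 on the log2 scale (mean 1.37 ± 0.319, SD, n = 2, or 2.58-fold). Both rescue samples lay well above both knockdown samples, which were at -0.59 and 0.19. In rescue repeat 1 only 21 of the 19938 genes had a higher value than Trpc6, and in rescue repeat 2 only 5 did. Ranked by the smaller of the 2 rescue values Trpc6 was the gene in place 4, after Ptgs2 (2.26), the neuropeptide gene Grp (1.48) and Penk (1.20), which encodes enkephalin. No other gene was at least 2-fold above control in each rescue sample, and these 4 made up 0.0201% of all genes in the table. These values chose the gene and are no test of it.

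In the knockdown Trpc6 did not hold a direction, with 1 sample below control and the other above. The mean was -0.20 (SE 0.19, n = 2, 95% interval -0.65 to 0.25, limma adjusted p = 0.651). That estimate shares its control arrays with the rescue ratio. Within a repeat the knockdown value minus the rescue value of Trpc6, from which a control array shared as a plain ratio drops out, was -1.73 in repeat 1 and -1.40 in repeat 2. The mean of -1.57 (SD 0.229) corresponds to a signal 2.96-fold higher in the rescue.

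Trpc7, the other diacylglycerol-gated member, stayed within 0.12 of control in all 4 samples. It was at -0.04 and 0.05 in the knockdown and at -0.12 and 0.11 in the rescue, and the groups overlapped. Its knockdown interval ran from -0.28 to 0.28 (adjusted p = 0.995), which leaves room for changes of that size. The pair therefore had unlike values in the rescue, a difference that was not tested because the choice of Trpc6 fixed it.

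Trpc4 was the member farthest below control in the knockdown. It was at -0.44 in repeat 1 and -1.30 in repeat 2, ratios of 0.739 and 0.405, and both lay below the rescue values of -0.04 and -0.0031 (ratios 0.971 and 0.998). The mean of -0.87 (SE 0.19, n = 2, 95% interval -1.31 to -0.43 before any correction) is a 1.83-fold lower signal and missed the threshold over all genes (limma adjusted p = 0.0982). Adding the repeat as a block gave an adjusted p of 0.0214. Against control, the block takes the repeat difference common to both groups out of the error. Blocked p-values against control, here and below, therefore do not measure that variation between repeats. That blocked fit called 5.39% of all genes (1.91% higher and 3.48% lower), against 0.306% without the block. The size depended on the repeat: knockdown repeat 2 alone gave -1.30 (adjusted p = 0.000214, in a fit that lets this lone sample vary like the rescue group) and repeat 1 alone gave -0.44 (adjusted p = 0.531). In knockdown repeat 2 only 43 genes were lower than Trpc4, and in repeat 1 843 were.

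Trpc5, which pairs with Trpc4 and is known for restraining neurite extension from growth cones, was below control in both knockdown samples. It was at -0.48 and -0.28 (mean -0.38, SE 0.15, n = 2, adjusted p = 0.266). Its rescue values were -0.10 and 0.42, so the rescue spread of 0.365 (SD) was as wide as the knockdown shift. Trpc1, the partner subunit, was at -0.15 and -0.33 in the knockdown (mean -0.24, SE 0.13, adjusted p = 0.400) and at -0.06 and 0.17 in the rescue. Neither gene's rescue samples were on the same side of control.

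Against control, then, 0 of the 5 TRPC genes passed in the knockdown in limma, where 0.306% of all genes did, and 2 had an unadjusted p under 0.05 (Trpc4 and Trpc5, both lower). Over all genes 16% had an unadjusted p under 0.05 in the knockdown, 6.93% higher and 9.04% lower, and counts at that limit below are to be read against these shares. Ordered by their knockdown mean the genes ran from Trpc4 (-0.87) through Trpc5 (-0.38), Trpc1 (-0.24) and Trpc6 (-0.20) to Trpc7 (0.00), and the 95% intervals of neighbours in that order overlapped. Trpc1, Trpc4 and Trpc5 were below control in both knockdown samples, as were 31.1% of all genes. In 4 of the 5, all but Trpc7, both knockdown samples lay below both rescue samples, as they did in 15.1% of all genes. This last count includes Trpc6, whose rescue values chose it. The median knockdown value of the 5 was -0.24 beside 0.00 for all genes, and the median rescue value was 0.05 beside -0.01.

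**Figure D2:**
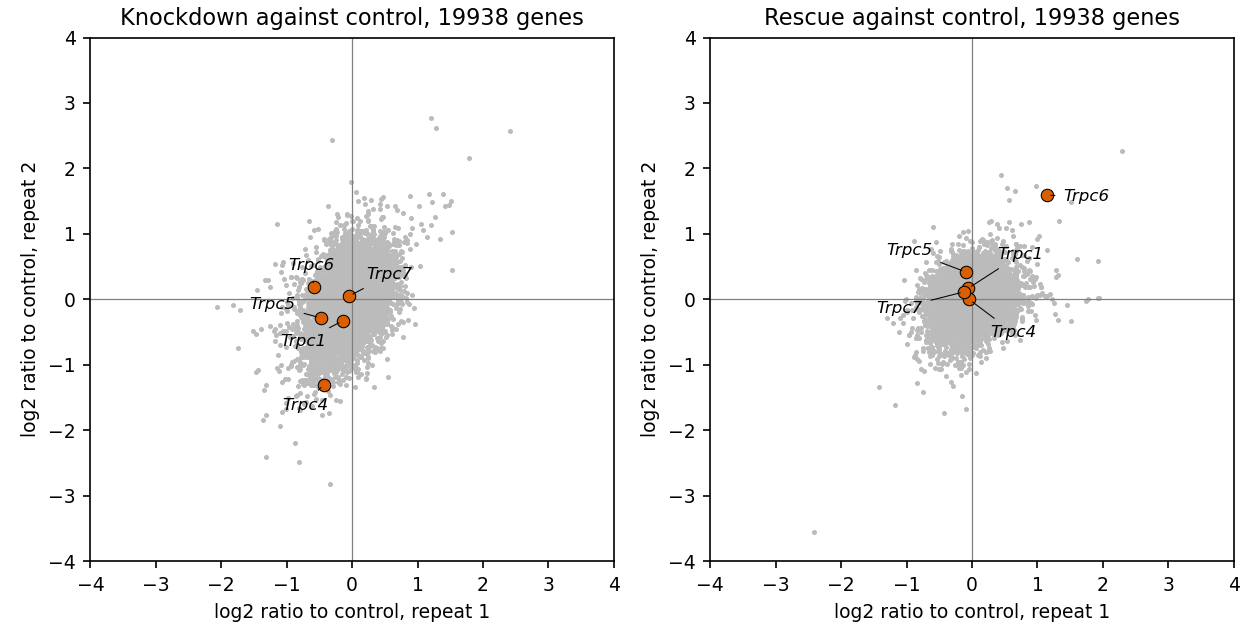
Log2 ratio to control in repeat 1 (horizontal) against repeat 2 (vertical) for knockdown (left) and rescue (right); grey points are all 19938 genes and orange points the 5 TRPC genes. In the rescue Trpc6 lies at the upper right edge at 1.14 and 1.59 while the other TRPC genes lie inside the cloud, and in the knockdown Trpc4 lies near its lower edge.

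The repeats themselves differed in spread. The standard deviation over all genes was 0.349 in knockdown repeat 2 and between 0.232 and 0.243 in the other samples, and the lower Trpc4 value belonged to the sample with the widest ratios. Its part in that value was not tested.

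Of the calmodulin genes that the shRNAs target, Calm2 fell in the knockdown (-1.40, adjusted p = 0.0297; 0.0692 without either rescue replicate). Calm3 was at -1.32 and -2.40 in the knockdown (adjusted p = 0.0577; 0.000284 in the blocked fit). Both also lay below control in each rescue sample, at -0.84 and -1.28 for Calm2 and at -2.41 and -3.55 for Calm3 (rescue adjusted p = 0.414 and 0.154; 0.0129 and 1.58e-05 in the blocked fit), and the labels do not say whether these probe sets detect the supplied calmodulin. The rescue samples in which Trpc6 was high were thus low for the Calm3 probe set.

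Other TRP channels gave no call. Of 20 measured TRPM, TRPV, TRPA, mucolipin and polycystin-like channel genes, 0 passed in limma in any of the 3 comparisons. At an unadjusted p under 0.05, 2 were higher and 1 lower in the knockdown. Trpm2, an oxidant-sensitive channel, was at 0.20 and 1.01 in the knockdown (mean 0.60, adjusted p = 0.189; 0.0321 in the blocked fit). Trpa1, a sensor of irritants, was at -0.48 and -0.44 there (adjusted p = 0.124; 0.0433 in the blocked fit) and at -0.37 and -0.45 in the rescue. The rescue means of these 20 genes ran from -0.41 to 0.13, below the 1.37 of Trpc6.

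Upstream of the channels, 0 of 25 genes for Gq-coupled receptors, BDNF and its receptor TrkB passed in limma in any comparison. In the knockdown 2 were higher and 7 lower at an unadjusted p under 0.05. Grm5, the main Gq-coupled glutamate receptor of cortex, had knockdown values of -0.63 and -1.20 (adjusted p = 0.0668), and its rescue values were -0.85 and -0.59. The muscarinic receptor gene Chrm1 had a mean of -0.70 (adjusted p = 0.107) and the serotonin receptor gene Htr2a was at -0.96 and -0.57 (adjusted p = 0.0837). In the blocked fit these 3 had adjusted p of 0.0163, 0.0178 and 0.0244, and the list held 1 higher and 4 lower. Cckbr, the cholecystokinin B receptor, was at 0.44 and 1.90 in the rescue and at -1.05 and 0.56 in the knockdown. Its rescue adjusted p was 0.590 (0.00898 in the blocked fit, which called 0.125% of all genes in the rescue, against 0% without the block), and in each repeat the rescue sample was the higher one.

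Among 28 genes for Gq proteins, phospholipases C, protein kinases C and the enzymes that make or remove diacylglycerol, 0 passed in limma in any comparison (6 higher and 7 lower in the knockdown at an unadjusted p under 0.05). Dagla, which turns diacylglycerol into an endocannabinoid, had knockdown values of -0.64 and -0.71 and rescue values of -0.11 and 0.06 (knockdown adjusted p = 0.0668; 0.0172 in the blocked fit). Plcb1, a phospholipase C downstream of Gq in cortex, was at -0.47 and -0.59 in the knockdown (adjusted p = 0.103; 0.0337 in the blocked fit). Dgkk, a diacylglycerol kinase, was high in 1 sample of each group (0.29 and 1.52 in the knockdown, 1.45 and -0.08 in the rescue), and Dgkd, another one, was between -0.44 and -0.78 in all 4.

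The store-operated calcium entry genes had the narrowest range of means among the 6 related lists. Of 17 genes for STIM sensors, Orai channels, inositol trisphosphate and ryanodine receptors, SERCA pumps and their regulators, 0 passed in limma and 0 had an unadjusted p under 0.05 in any comparison. Knockdown means ran from -0.29 (Ryr3) to 0.28, and rescue means from -0.14 (Itpr2) to 0.23 (Ryr1). Stim1 was at -0.06 in the knockdown and 0.01 in the rescue, and Orai1 at 0.09 and -0.03. Itpr1 was not among the genes measured, so the inositol trisphosphate receptor genes here are Itpr2 and Itpr3 only.

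Among the related lists, only that of proteins that bind TRPC channels held genes that passed in limma. This list includes Calm2 and Calm3, which the shRNAs target. Of 21 genes measured, 2 passed as lower in the knockdown (Calm2, itself a target, and Homer1) and 0 as higher, and 0 passed in the rescue. In the blocked fit 2 were higher and 4 lower in the knockdown, and 2 (Calm2 and Calm3) were lower in the rescue. Homer1, a scaffold that links TRPC channels to inositol trisphosphate receptors, was at -1.14 and -1.05 in the knockdown (adjusted p = 0.0140). Its rescue values were 0.31 and 0.26, and the knockdown lay lower than the rescue by a log2 difference of -1.38 (adjusted p = 0.0499). That last call was lost with small changes of setting, at 0.0504 after median centring, 0.0509 with the median over probe sets, 0.0561 with genes of 1 probe set and 0.123 after quantile normalization, and without either rescue replicate (0.389 and 0.412). The knockdown call was lost after quantile normalization (0.0575) and without either rescue replicate (0.0608). Homer1 kept both calls in the blocked fit (adjusted p = 0.00262 in the knockdown and 0.00836 for knockdown against rescue). Homer2 was at -0.52 and -1.20 in the knockdown (adjusted p = 0.0824, and 0.0145 in the blocked fit). Its rescue values were 0.15 and 0.14. Homer3 was at -0.24 and -0.18, then -0.07 and -0.62. Cav1, the caveolae protein, was at 0.38 and 0.60 in the knockdown, and Pkd1, the polycystin partner of TRP channels, at 0.43 and 0.61. Neither of these passed (adjusted p = 0.126 and 0.135), though both did in the blocked fit (0.0448 and 0.0328). Over all genes 0.306% passed in the knockdown and 0.0702% in the knockdown against the rescue.

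**Figure D3:**
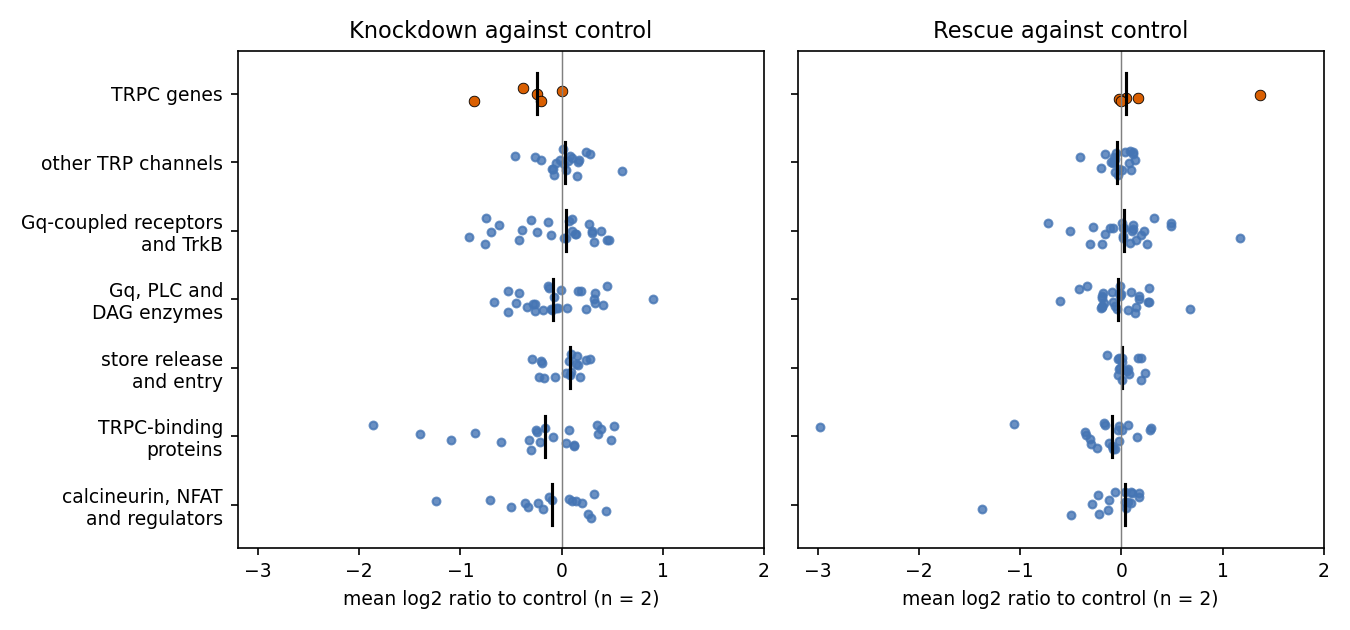
Mean log2 ratio to control (horizontal axis, n = 2 per group) of the 5 TRPC genes (orange) and of the genes in 6 related lists (blue), with black bars at list medians, for knockdown (left) and rescue (right). In the rescue Trpc6 at 1.37 is the highest point shown and Calm3 at -2.98 the lowest, while list medians lie between -0.09 and 0.05.

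Of 17 genes for calcineurin, NFAT factors and other transcription regulators tied to TRPC6, 0 passed in limma in any comparison, with 0 higher and 5 lower in the knockdown at an unadjusted p under 0.05. Ppp3ca, a calcineurin catalytic subunit, had knockdown values of -0.82 and -1.66 and rescue values of -1.42 and -1.35, low in all 4 samples. Its knockdown adjusted p was just above the threshold of 0.05 (0.00767 in the blocked fit) and its rescue adjusted p was 0.414 (0.0190 in the blocked fit). Nfatc3 and Nfatc4 had rescue means of 0.04 and 0.11, and Creb1 one of -0.12. Camk4, a nuclear calmodulin-dependent kinase, was at -0.44 and -0.98 in the knockdown and at -0.09 and -0.04 in the rescue (knockdown adjusted p = 0.0912; 0.0219 in the blocked fit). In the knockdown the blocked fit also called Srf lower (-0.50, 0.0388) and Nfatc2 higher (0.44, 0.0476).

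The genes with values nearest to Trpc6 were found by Euclidean distance over its 4 log2 ratios among 17059 named genes. They were Penk (0.475), Car10 (0.560), which encodes a carbonic anhydrase-related protein without enzyme activity, Grp (0.806), the transglutaminase gene Tgm3 (0.849) and Pcsk1 (0.899), a protease that processes neuropeptide precursors. In Penk the knockdown samples were at -0.75 and 0.29 and the rescue samples at 1.34 and 1.20. Car10 was at -0.50 and 0.46, then at 0.66 and 1.66. All 5 shared with Trpc6 a negative value in knockdown repeat 1, a value above 0 in knockdown repeat 2 and positive values in both rescue samples. A distance over 4 samples that share 2 control arrays is a description of likeness only.

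**Figure D4:**
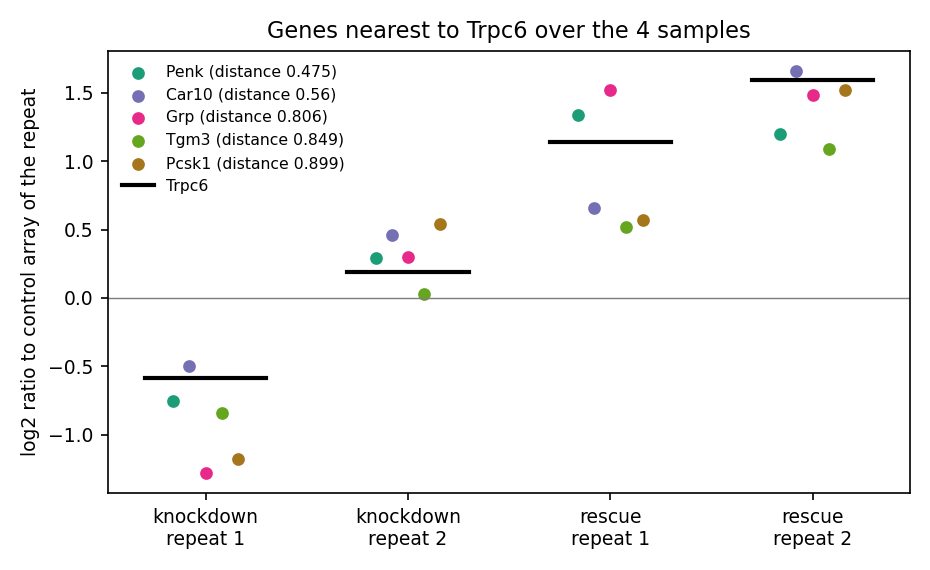
Log2 ratio to control (vertical axis) of the 5 genes nearest to Trpc6 (coloured points, Euclidean distance over the 4 samples in the legend) and of Trpc6 (black bars) in each sample (horizontal axis). All 6 genes are below 0 in knockdown repeat 1 and above 0 in both rescue samples, with Trpc6 at 1.14 and 1.59 in the rescue.

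Measured genes beside Trpc6 on chromosome 9 had rescue means between -0.50 and 0.29. The nearest genes on one side were Cfap300 (rescue mean 0.29), Cep126 (-0.36) and a gene known by a clone name, and on the other Pgr, the progesterone receptor (0.22), Arhgap42 (-0.08) and Cntn5 (-0.50). The 6 nearest measured neighbours of Trpc4 on chromosome 3 had knockdown means between -0.25 (Supt20) and 0.20 (Frem2).

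Markers of cells that could hold TRPC transcripts were read in the same samples, in which fewer cells of a type and less RNA per cell cannot be told apart. Vascular smooth muscle and pericytes, which are known to express TRPC6, had 12 markers measured. Their median was 0.05 and -0.14 in the rescue samples and 0.03 and 0.49 in the knockdown samples, and 0 passed in limma in any comparison. At an unadjusted p under 0.05, 3 were higher in the knockdown and 1 lower in the rescue, where 4.49% of all genes were lower. Between knockdown and rescue, where 1359 of the 19938 genes were past that limit in either direction, 4 markers were higher in the knockdown and 0 lower. Their rescue means ran from -0.57 (Acta2, smooth muscle actin) to 0.16 (Myh11, smooth muscle myosin). The 8 dentate granule and hippocampal markers had rescue medians of -0.10 and -0.14, with Prox1 at -0.99 and -0.68, and the 12 interneuron markers had rescue medians of -0.30 and -0.56. Of the interneuron markers 5 were lower in the rescue at an unadjusted p under 0.05 and 0 passed in limma, while the blocked fit called Gad1 lower there (0.0482). The part of these cell types in the Trpc6 values was not tested.

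Beside the lower Trpc4 values, the 9 cortical excitatory neuron markers had medians of -0.33 and -0.68 in the knockdown samples and of -0.20 and -0.18 in the rescue. In limma 0 of them passed, 6 were lower in the knockdown at an unadjusted p under 0.05, and 4 were lower in the blocked fit. Neurod6 was at -0.81 and -2.49 in the knockdown. The 10 astrocyte markers had knockdown medians of 0.27 and 0.34, with 0 passing, 6 higher at an unadjusted p under 0.05 and 3 higher in the blocked fit. The 12 pan-neuronal markers had knockdown medians of -0.08 and -0.29, with 0 passing in limma. At an unadjusted p under 0.05, 2 of them were higher and 3 lower in the knockdown. The blocked fit called Nefm higher there (0.88 and 1.58) and Rbfox3 and Dcx lower. Interneuron markers had knockdown medians of 0.14 and -0.57, and the blocked fit called 4 of them lower (Gad1, Gad2, Dlx5 and Calb2). The part of these lists in the Trpc4 values was not tested. Medians of endothelial, fibroblast, oligodendrocyte and microglial markers in the rescue samples ran from -0.31 to 0.11, and 0 of their genes passed in limma in any comparison. Those 4 lists held 9, 8, 7 and 12 measured genes in that order. At an unadjusted p under 0.05, 2 of these genes were higher in the knockdown, as were 6.93% of all genes. In the rescue 7 were lower at that limit, 4 of them microglia and macrophage markers, beside 4.49% of all genes.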

How the data were processed

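The authors deposited 1 linear ratio per probe set and sample, which divides each test array by its repeat's control array, per the labels' series design. For background correction, summarization and normalization no statement was found in the labels. Of 35399 probe sets, 21789 had exactly 1 symbol in the platform annotation, 1621 several, and 11989 were not listed in it. The deposited ratios were put on the log2 scale and averaged per symbol, giving 19938 genes. Tests used lmFit and eBayes of limma 3.58.1 (R 4.3.3, two-sided), with 1 coefficient a group, 2 residual and 6.11 prior degrees of freedom, and Benjamini-Hochberg adjustment over all genes at 0.05. SE values come from that fit. The size estimates of the fit were checked on simulated ratios with known changes. False calls were counted in those simulations, but no limit was set on them and the counts are not given here.

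The labels give same-numbered samples 1 shared replicate date, so they are paired. Their deviations from group means correlated at 0.305 across genes, and the repeat was added as a block beside the main fit. For ratios to control, the blocked fit leaves the repeat difference common to both groups out of its error. Knockdown and rescue ratios of a repeat share their control array.

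The members and lists were chosen with earlier results of these data known. Genes named from a list were those past the threshold and those with large mean ratios, up to 4, and a few others were named after their values were seen. For Trpc6 the 5 nearest genes were named, leaving out predicted genes, receptor families and small RNAs. Promoters come from RefSeq, build GRCm38.p6. The files name no build.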

Additional observations from a re-analysis of the deposited data

How the results depend on the processing

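Trpc4 was the TRPC gene whose call changed: 1 TRPC gene passed in the knockdown with the repeat as a block, and between 0 and 1 without a replicate. Trpc7 turned to -0.0072 in the knockdown under quantile normalization and to -0.0437 without knockdown replicate 2, and Trpc6 lay between -0.5874 and 0.1887 without one or the other knockdown replicate. Homer1 and Calm2, which passed among the related lists, kept their direction in the alternatives computed per gene. Their calls were lost in the settings named with them, in fits of the knockdown columns alone, and when every probe set was tested. Counts over all genes depended on the fit. In the knockdown 61 genes passed, against 1074 with the block, 20 under quantile normalization, 0 with every probe set tested (3873 at an unadjusted p under 0.05), 12 in a fit of the knockdown columns alone and 12 to 1272 without a replicate (1272 and 108 when knockdown replicate 1 or 2 was left out, 12 when a rescue replicate was). In the rescue 0 passed (1484 at an unadjusted p under 0.05), against 25 with the block, 1 under quantile normalization, 176 in a fit of the rescue columns alone and 0 to 176 without a replicate (176 without either knockdown replicate). For knockdown against rescue 14 passed, against 123 with the block, 2 under quantile normalization, 4 with median centring, 4 with the median over probe sets, 4 with genes of 1 probe set, 0 with every probe set tested and 0 to 350 without a replicate (350 and 147 when knockdown replicate 1 or 2 was left out, 0 when a rescue replicate was). The cause of these changes was not tested. Where a replicate was left out, the lone sample was assumed to vary like the other group. Signal over background is unknown here.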
